A study of Mus musculus with 7 samples.

Results

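The genes described here are the 7 Fos and Jun subunits of the transcription factor AP-1, namely Fos, Fosb, Fosl1, Fosl2, Jun, Junb and Jund, together with the related stress factor Atf3 and the small Maf factor Maff. They were taken by name from a table of 24552 gene symbols, and all 9 were found. The genes were chosen by family with their counts in the DT and PBS libraries already known. The differences between groups in these 9 genes are therefore given as a description and not as a test. Where calls from fits across all genes are stated for them, nothing is read from those calls. The 7 libraries were made from transcript 3′ ends of EpCAM+ cholangiocytes, which line the bile ducts, freshly isolated from mouse livers. All mice carried the Foxp3GFPDTR transgene, which places the receptor for diphtheria toxin in Foxp3-positive regulatory T cells, and all ate DDC, a diet that injures bile ducts, for 10 days. They were injected into the peritoneum every 48 h with diphtheria toxin at 1 µg/kg (DT, 3 libraries) or with saline (PBS, 4 libraries). By the labels, the saline mice differ by the toxin and not by the transgene or the diet. The groups also differed in reads of Y-linked genes, as described below. The labels give no age or sex and name no animal for a library, so every p-value below rests on the spread from library to library, which may be technical in part.

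AP-1 is a dimer of basic leucine zipper (bZIP) proteins. Fos proteins must pair with a Jun protein to bind DNA, while Jun proteins can also pair with each other. Dimers bind the sequence TGACTCA or, for Jun paired with ATF proteins, TGACGTCA. Growth factors, cytokines, mechanical strain and toxic stress act through MAP kinases to switch on Fos, Jun, Junb and Atf3 within minutes, and the resulting transcripts are short-lived. In epithelia AP-1 is known for its part in proliferation and in the response to injury. The same genes are known to be induced while a tissue is dissociated into single cells.

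Stretches of DNA just upstream of 8 of these genes were searched for short motifs of the AP-1 and cAMP response element kind, and 3 are printed. RefSeq promoters (build GRCm38.p6, not the mm9 build of the counts) were on hand for 8 of the 9 genes, with Fosl1 not among them. Printed are the 150 bases before the annotated start of Junb, the gene whose level differed most between the groups, and of Fos and Jun, the best-read member of each family beside it. Capitals mark TGACG, the core of a cAMP response element, or TGACATCA, the AP-1-like element known from the Jun promoter. Both strands were searched.
Junb, chr8:84978749-84978898, minus strand: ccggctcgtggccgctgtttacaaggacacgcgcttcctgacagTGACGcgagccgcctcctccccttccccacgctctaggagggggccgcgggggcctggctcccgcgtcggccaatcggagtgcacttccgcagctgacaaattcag
Fos, chr12:85473740-85473889, plus strand: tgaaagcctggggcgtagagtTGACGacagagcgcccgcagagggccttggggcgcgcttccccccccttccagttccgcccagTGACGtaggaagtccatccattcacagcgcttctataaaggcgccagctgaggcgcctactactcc
Jun, chr4:95052223-95052372, minus strand: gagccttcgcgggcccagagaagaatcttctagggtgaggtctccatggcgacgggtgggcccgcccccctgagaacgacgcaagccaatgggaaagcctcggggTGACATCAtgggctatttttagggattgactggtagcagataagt
TGACG lay 106 bases before the start in Junb and 129 and 66 bases before it in Fos, and TGACATCA lay 45 bases before it in Jun. Of 32851 promoter windows of this length in the table, 13.3% held TGACG, 2.32% held TGACATCA, 1.36% held TGACGTCA, 2.84% held TGACTCA and 0.916% held a CArG box, the site of serum response factor. TGACG is also part of TGACGTCA, so these shares overlap. Among the 10 windows of the 8 genes, TGACG was found in 6 (of Atf3, Fos, Fosb, Junb and Maff) and TGACATCA in 2 (of Jun and Maff). TGACGTCA was found in 1 of the 3 Maff windows. TGACTCA and the CArG box were found in 0 of the 10. Sites more than 150 bases before the start were not searched, so these genes may hold such motifs there. These matches describe letters and were not tested against expression.

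All 9 genes had reads in every library, from 316 to 11456 counts, and all 9 passed the filter on low counts, as did 7688 of the 24552 symbols. Levels are given as CPM, the count scaled to a common library size after TMM scaling. Since the libraries read transcripts at their 3′ ends, the number of reads does not scale with transcript length by design, and levels were compared between genes without division by length. Total counts per library were 5683824 to 6285624 in DT and 4805018 to 5499832 in PBS. Symbols with reads numbered 5419, 7827 and 7920 in DT 1 to 3 and 5967, 6952, 6164 and 8361 in PBS 1 to 4. DT 1 and PBS 1 thus had the fewest. The part of this in the values of the 9 genes was not tested. The sorting marker Epcam had 3810 to 4840 counts in DT and 3608 to 5079 in PBS, and of 18 listed cholangiocyte markers 1, Ggt1, was at 0 throughout. Foxp3 had 0 counts throughout, a result that leaves room for 3 counts per library from counting error, and the loss of regulatory T cells was not measured here. In these bulk libraries fewer cells of a type and less RNA per cell cannot be told apart.

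Junb was the only 1 of the 9 genes whose DT and PBS values did not overlap. The same held for 6.37% of all tested genes and 13.1% of those averaging a log2 CPM of 8 or more. The protein made from Junb is a Jun subunit that can restrain the activity of c-Jun. Junb stood at 645, 807 and 963 CPM in DT 1 to 3, against 1636, 1595, 2316 and 1412 CPM in PBS 1 to 4. The DT values were all below the PBS values. The means were 805 ± 159 CPM in DT (SD, n = 3) and 1740 ± 396 CPM in PBS (SD, n = 4). The fitted level in DT was 0.464 times that in PBS, or -1.11 as a log2 fold change (SE 0.27). When 1 library was left out in turn the log2 fold change ran from -1.26 to -0.95.

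Jun encodes c-Jun, the best-known Jun subunit and the partner of most Fos proteins. It stood at 659, 1098 and 1041 CPM in DT 1 to 3, against 1059, 1037, 1324 and 1182 CPM in PBS 1 to 4. The groups overlapped, and DT 1 was lower than the other 6 libraries. The log2 fold change of -0.30 (SE 0.28) lay between -0.43 without DT 2 and -0.12 without DT 1. Jund encodes the subunit that most tissues make at a steady level. It was the least abundant of the 9 genes, at 143, 71.4 and 106 CPM in DT 1 to 3 and 167, 67.7, 63.9 and 153 CPM in PBS 1 to 4, with a log2 fold change of -0.08 (SE 1.07). Its sign turned when PBS 1, PBS 4 or DT 2 was left out.

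Fos encodes c-Fos, the early-induced partner of c-Jun. It stood at 668, 996 and 870 CPM in DT 1 to 3 and 653, 529, 735 and 953 CPM in PBS 1 to 4, with overlapping groups and a log2 fold change of 0.24 (SE 0.31). Fosb, an early gene close to Fos, stood at 486, 369 and 725 CPM in DT 1 to 3 and 214, 318, 295 and 771 CPM in PBS 1 to 4. PBS 4 was the highest of the 7 libraries and PBS 1 to 3 were the lowest. The log2 fold change of Fosb was 0.40 (SE 0.41), between 0.09 without DT 3 and 0.94 without PBS 4.

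The Fos-related genes Fosl1 (Fra-1) and Fosl2 (Fra-2), which encode subunits without the strong activation domain of c-Fos, did not run alike. Fosl1 stood at 418, 311 and 201 CPM in DT 1 to 3, against 654, 521, 528 and 376 CPM in PBS 1 to 4. Only PBS 4 came below a DT library, DT 1. The log2 fold change of Fosl1 was -0.74 (SE 0.40), between -1.04 and -0.51 when 1 library was left out. Fosl2 stood at 169, 316 and 598 CPM in DT 1 to 3 and 92.1, 390, 406 and 495 CPM in PBS 1 to 4. Both the highest and the second lowest of these 7 values were DT libraries, and the lowest was PBS 1. The log2 fold change of Fosl2 was 0.07 (SE 0.49), between -0.51 without DT 3 and 0.39 without DT 1.

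Atf3 encodes a bZIP factor induced by stress that pairs with Jun proteins and can repress transcription. It stood at 931, 377 and 530 CPM in DT 1 to 3, against 473, 175, 233 and 463 CPM in PBS 1 to 4. DT 1 and DT 3 were above all PBS libraries, while DT 2 lay below PBS 1 and PBS 4. The means were 613 ± 286 CPM in DT (SD, n = 3) and 336 ± 154 CPM in PBS (SD, n = 4). The log2 fold change of Atf3 was 0.87 (SE 0.40), between 0.41 without DT 1 and 1.12 without DT 2. Maff encodes a small Maf protein that lacks an activation domain and pairs with NRF2 and other bZIP factors. It stood at 432, 344 and 430 CPM in DT 1 to 3 and 391, 455, 184 and 433 CPM in PBS 1 to 4, with a log2 fold change of 0.14 (SE 0.42). PBS 3 was the low library, and the value lay between -0.09 without it and 0.26 without PBS 2.

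**Figure D1:**
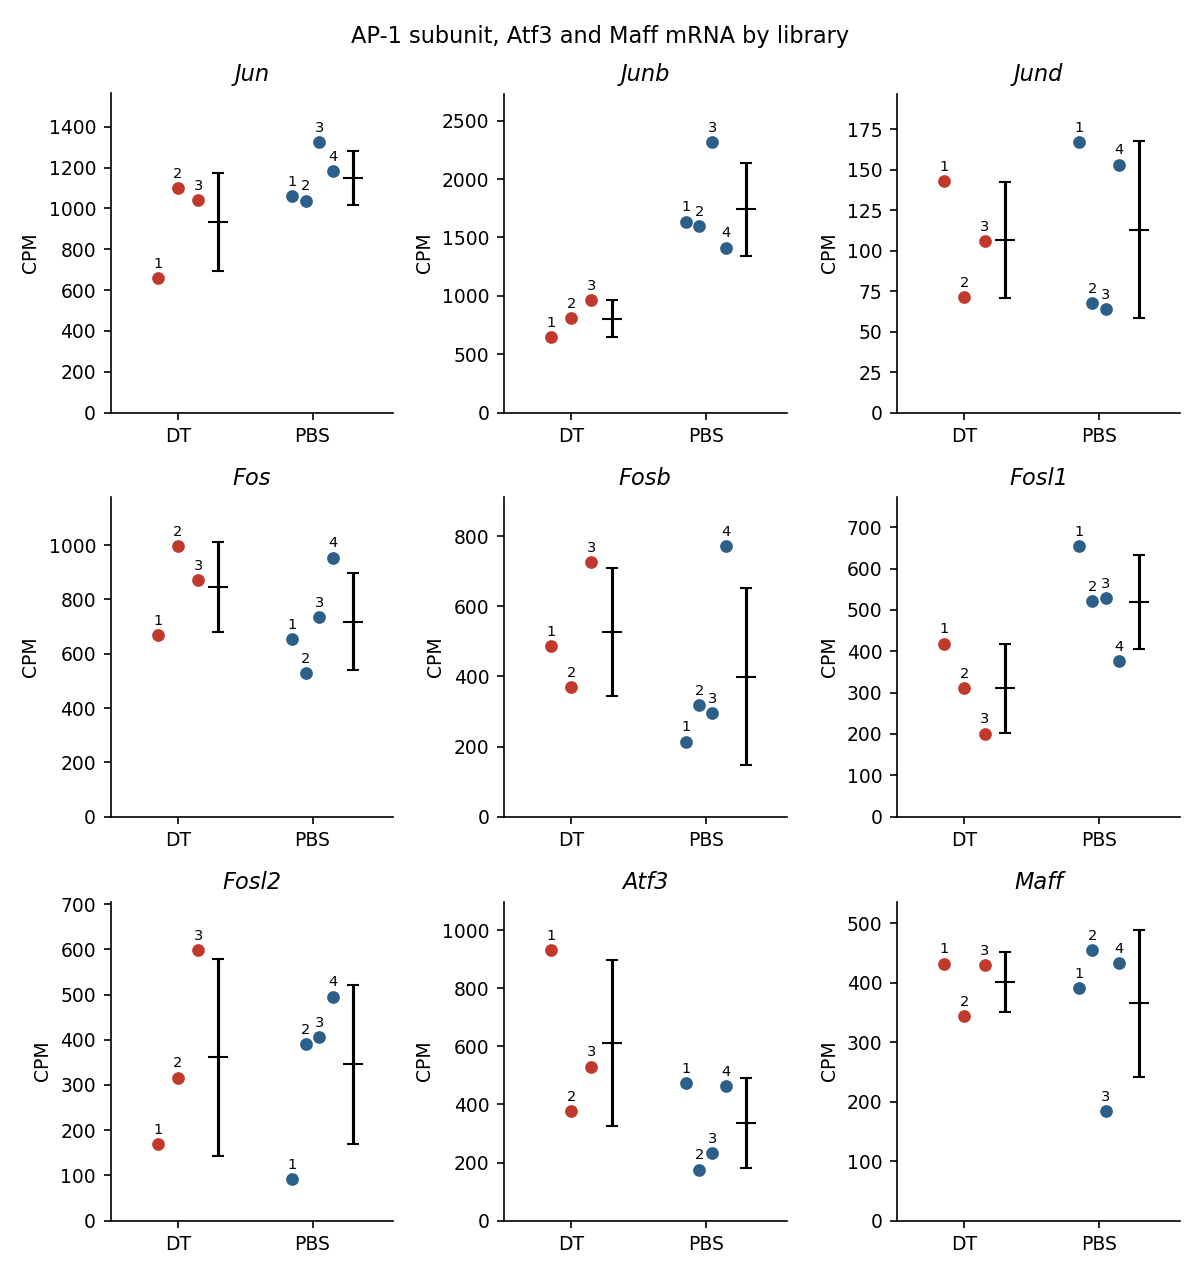
CPM of each gene (y axis, from 0) in DT and PBS libraries (x axis), with points numbered by library and the mean with its SD beside them (n = 3 for DT, n = 4 for PBS). The DT points of Junb, at 645 to 963 CPM, all lie below its PBS points, at 1412 to 2316 CPM, while the groups of the other 8 genes overlap. Groups without overlap were seen for 6.37% of all tested genes and 13.1% of those averaging a log2 CPM of 8 or more.

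Of the 9 genes, 5 had positive and 4 negative log2 fold changes, with a median of 0.07. Among all 7688 tested genes 50.7% were negative, with a median of -0.02. By the edgeR quasi-likelihood test across all genes 0 of the 9 passed an adjusted p of 0.05, where 3 of 7688 genes, or 0.0390%, passed, all 3 of them lower in DT. At an unadjusted p below 0.05 there were 1 lower and 1 higher among the 9, where 2.11% of all tested genes were lower and 1.39% higher. Of the 733 genes whose log2 CPM averaged 8 or more, 46 were lower and 48 higher. The edgeR adjusted p of Junb was 0.288. It passed by DESeq2, which called 1.43% of the genes with an adjusted p, and by limma-voom, which called 0.156% of genes. The groups did not overlap for 1 of the 9 genes (11.1%), lower in DT, against 6.37% of all tested genes (2.61% lower in DT) and 13.1% of the 733 genes whose log2 CPM averaged 8 or more, where 8 of the 9 members lie. The members were chosen with this contrast in view, so nothing is read from these counts.

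**Figure D2:**
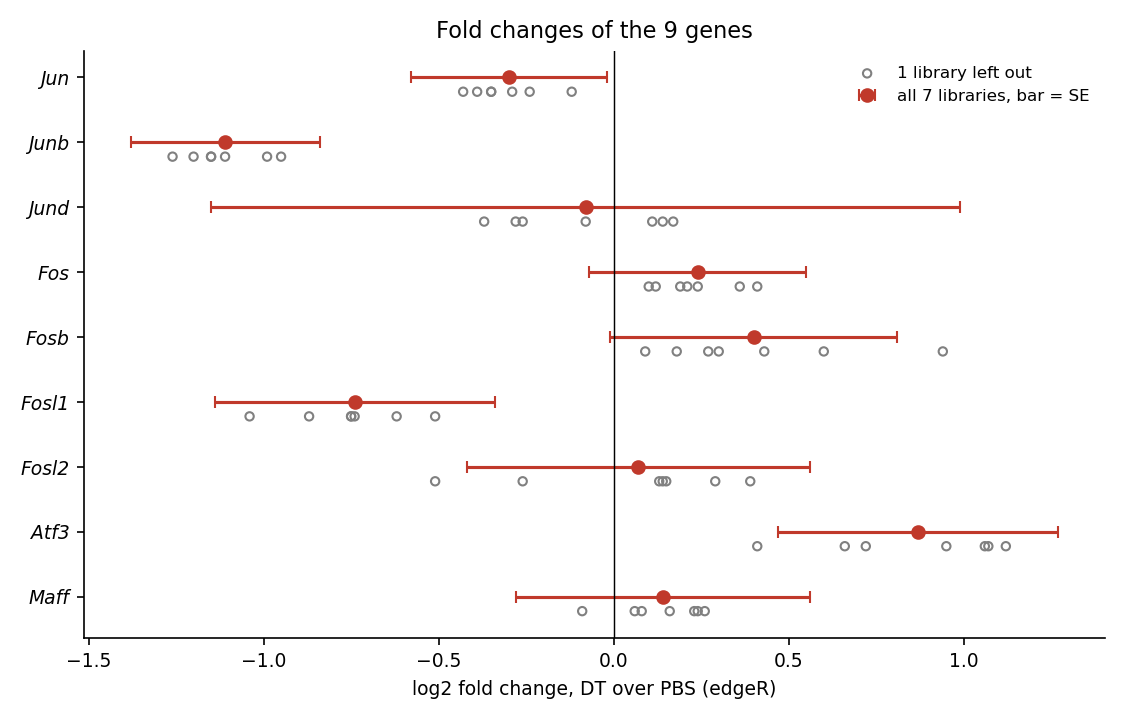
Log2 fold change of DT over PBS from the edgeR fit (x axis) for each of the 9 genes (y axis), with its SE as a bar, and open circles for the 7 fits that each leave out 1 library. Junb lies at -1.11 with circles between -1.26 and -0.95, and the circles of Jund, Fosl2 and Maff fall on both sides of 0.

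The spread between libraries was far wider than counting error. The coefficient of variation of the 9 genes ran from 12.5% (Maff) to 60.4% (Fosl2) in DT and from 11.5% (Jun) to 63.0% (Fosb) in PBS, while counting alone would give 1.06% to 4.13%. The median over the 8 genes that averaged a log2 CPM of 8 or more, all but Jund, was 30.0% in DT and 29.4% in PBS. The other 725 genes at or above that level had medians of 30.0% in DT and 31.7% in PBS.

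The order of the genes differed between the groups. In DT the means ran from Jun (933 CPM) through Fos (845), Junb (805), Atf3 (613), Fosb (527), Maff (402), Fosl2 (361) and Fosl1 (310) to Jund (107 CPM). The ranges of Jun, Fos and Junb overlapped there, and Jund lay below every value of the other 8 genes. In PBS the means ran from Junb (1740 CPM) through Jun (1150), Fos (718), Fosl1 (520), Fosb (400), Maff (366), Fosl2 (346) and Atf3 (336) to Jund (113 CPM). Every PBS value of Junb lay above those of Jun, and every PBS value of Jun above those of Fos, while from Fos down to Atf3 the range of each gene overlapped with that of the next.

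Shares and ratios of counts within a library do not depend on the scaling between libraries. Junb made up 14.2%, 17.2% and 17.6% of the summed counts of the 9 genes in DT 1 to 3, against 30.6%, 31.4%, 38.1% and 22.6% in PBS 1 to 4. It held the largest share in all 4 PBS libraries and in 0 of the 3 DT libraries, where Atf3 led in DT 1 and Jun in DT 2 and DT 3. The share of Jun was 14.5% to 23.4% in DT and 18.9% to 21.7% in PBS. Atf3 took 20.5% in DT 1 but 8.04% and 9.71% in DT 2 and DT 3, against 3.45% to 8.86% in PBS. All 9 genes together took 0.446% to 0.506% of all counts in DT and 0.510% to 0.626% in PBS. On the scaled values their sum was 4902 ± 492 CPM in DT (SD, n = 3) and 5688 ± 561 CPM in PBS (SD, n = 4), with overlapping groups.

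**Figure D3:**
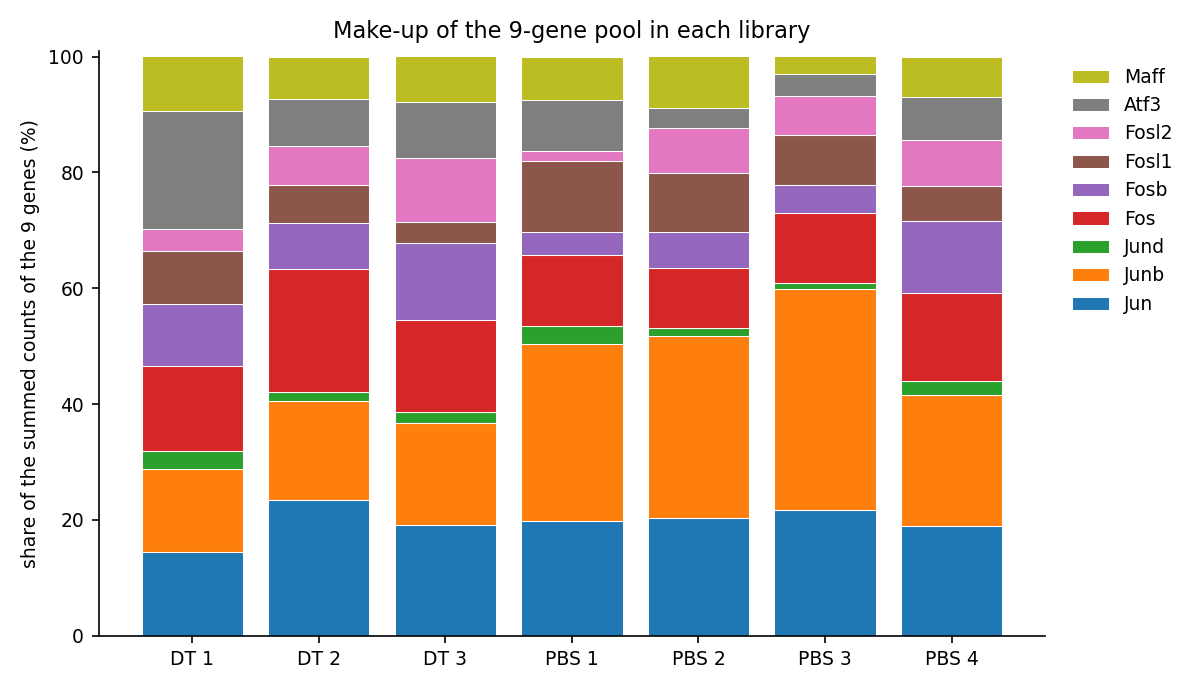
Share of the summed counts of the 9 genes (y axis, percent) taken by each gene in each library (x axis), DT 1 to 3 and then PBS 1 to 4. The Junb segment spans 14.2% to 17.6% in DT and 22.6% to 38.1% in PBS.

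The ratio of Junb to Jun counts was 0.979, 0.735 and 0.925 in DT 1 to 3, against 1.54, 1.54, 1.75 and 1.20 in PBS 1 to 4, so Junb outnumbered Jun in each PBS library and in no DT library. Counts of the 3 Jun genes over those of the 4 Fos genes were 0.831, 0.992 and 0.882 in DT 1 to 3, against 1.77, 1.54, 1.89 and 1.06 in PBS 1 to 4. PBS 4, with the highest Fos, Fosb and Fosl2 and the lowest Junb and Fosl1 of the PBS group, came closest to the DT libraries. The summed level of Fos, Fosb, Fosl1 and Fosl2 was 2042 ± 329 CPM in DT (SD, n = 3) and 1983 ± 433 CPM in PBS (SD, n = 4). That of Jun, Junb and Jund was 1844 ± 351 CPM in DT and 3003 ± 472 CPM in PBS. Atf3 over Junb was 1.44, 0.467 and 0.551 in DT 1 to 3, against 0.289, 0.110, 0.100 and 0.328 in PBS 1 to 4, again with no overlap. Each of the ratios above includes Junb, so they are not separate from its own difference. Without Junb, Atf3 over Fos was 0.379 to 1.39 in DT and 0.316 to 0.724 in PBS, with overlap. Fosl1 over Fos, Fosb over Fos and Fosl1 over Fosl2 overlapped too. These ratios were set after the values were seen and rest on the same contrast, so they carry no test.

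**Figure D4:**
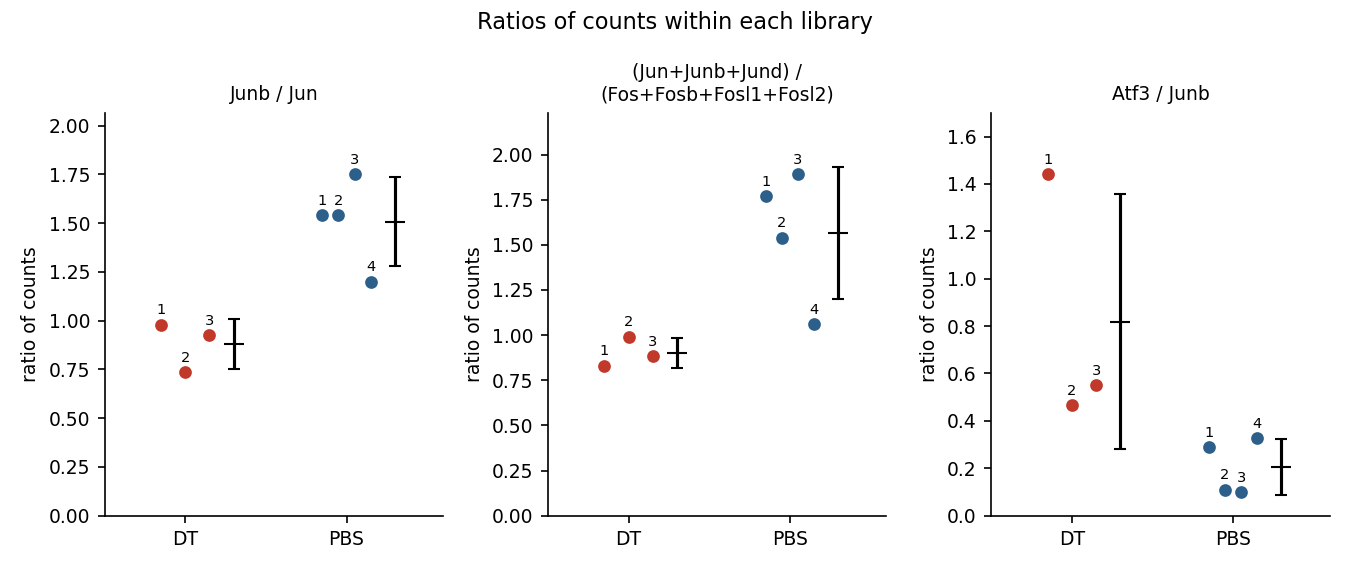
Ratios of counts within each library (y axes, from 0) for Junb over Jun, the 3 Jun genes over the 4 Fos genes, and Atf3 over Junb, in DT and PBS libraries (x axes), with the mean and its SD. In each panel the DT points and the PBS points do not overlap, with Junb over Jun at 0.735 to 0.979 in DT and 1.20 to 1.75 in PBS. Each ratio shown includes Junb, and the ratios without Junb, not shown, overlapped.

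The summed shares of heat shock genes and of hepatocyte markers separated the groups, and those of the markers of other cell types overlapped between them. The 15 listed heat shock genes, known like the AP-1 genes to respond to tissue dissociation, took 1.33% to 1.42% of counts in DT and 1.56% to 1.69% in PBS, without overlap. Taken singly, the groups did not overlap for 1 of the 14 tested (7.14%, against 6.37% of all tested genes). It was Hsp90ab1, the gene with the highest average CPM of the list, while Hspa1a and Hspa1b overlapped. Hsp90ab1 alone had 34283 to 48965 counts per library, against 76999 to 93210 for the 15 genes summed. The separation of the sum is thus not separate from that of this gene. Hepatocyte markers took 0.384% to 0.506% in DT and 0.235% to 0.353% in PBS, with 6 of 22 at 0 in every library, among them Cyp3a11 and Cps1. Macrophage and monocyte markers took 0.154% to 0.178% in DT and 0.0910% to 0.200% in PBS, with 3 of 18 at 0 throughout, among them Adgre1. Stellate cell and fibroblast markers took 0.120% to 0.187% in DT and 0.0704% to 0.223% in PBS, with Lrat, Des and Pdgfrb at 0 throughout. T and NK cell markers took 0.00428% to 0.0145% in DT and 0% to 0.00544% in PBS, where PBS 4 alone came above 2.1e-05%. Neutrophil markers took 0.00389% to 0.0176% in DT and 0% to 0.0355% in PBS, and endothelial markers 0.000139% to 0.00612% in DT and 0% to 0.00352% in PBS. The 6 B cell markers in the table were at 0 throughout. The part of these in the values of the 9 genes was not tested.

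Each of the 3 DT libraries held reads of Y-linked genes, as did 1 of the 4 PBS libraries, PBS 1. The labels give no sex. Apart from PBS 1, the toxin and the presence of Y-linked reads went together and cannot be told apart. Junb stood at 645 to 963 CPM in the 3 DT libraries and 1636 CPM in PBS 1, with a DT mean 0.492 times the value of PBS 1. Since its groups did not overlap, DT was bound to lie below PBS 1, and this rests on 1 PBS library. The part of Y-linked reads in the level of Junb was not tested. Fosl1 in the same comparison was at 201 to 418 CPM in DT and 654 CPM in PBS 1. With the presence of Y-linked reads in the edgeR fit, the DT term sets the DT libraries against PBS 1 alone. That fit therefore repeats the comparison with PBS 1 and is not a separate result. In it the log2 fold changes of Junb and Fosl1 were -1.02 and -1.07. Atf3 was at 0.38, and Fosb and Fosl2 were at 1.30 and 1.98. In that fit the median of all tested genes was 0.67.

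Genes that act with AP-1 were then examined in lists put together by function, whose members outside the 9 were tested in the same fit. None of the 130 tested genes in the 5 lists passed the edgeR test, where 0.0390% of all genes passed. At an unadjusted p below 0.05 there were 9 lower and 2 higher among them, against 2.11% lower and 1.39% higher of all tested genes. Such calls are commoner among well-read genes. Of the 733 genes averaging a log2 CPM of 8 or more, where 41 of the 130 lie, 46 were lower and 48 higher. Of the 130, 58.5% had a negative log2 fold change, with a median of -0.11, against 50.7% and -0.02 over all tested genes. Nothing is read from these counts.

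Other bZIP factors, the possible partners of AP-1 proteins, were tested for 24 of 32 listed genes, of which 10 had positive and 14 negative log2 fold changes, with a median of -0.21. Atf4, a factor of the integrated stress response, stood at 1343 ± 233 CPM in DT (SD, n = 3) and 1423 ± 128 CPM in PBS (SD, n = 4). Nfe2l2, which encodes NRF2, a regulator of antioxidant genes and a partner of small Maf proteins, had a log2 fold change of 0.56 (SE 0.42). The values of Xbp1, a factor of the unfolded protein response, and of Mafg, another small Maf, were 0.32 (SE 0.54) and -0.39 (SE 0.53). The edgeR adjusted p was 1.00 for each of these 4.

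Kinases and factors upstream of AP-1 were tested for 35 of 38 genes, with 14 positive, 21 negative and a median log2 fold change of -0.54. Map4k4, a kinase that feeds the JNK branch of MAP kinase signalling, was at 509, 528 and 604 CPM in DT 1 to 3, against 1063, 1926, 1030 and 825 CPM in PBS 1 to 4. The groups did not overlap, with an edgeR adjusted p of 0.570 and a log2 fold change of -1.14 (SE 0.31). Srf, which encodes serum response factor, an activator of Fos and Junb, had -0.73 (SE 0.40). Map2k3, a kinase of the p38 branch, and Nras, a small GTPase upstream of ERK, had 0.02 (SE 0.41) and 0.51 (SE 0.50). The edgeR adjusted p was 1.00 for these 3, and Map2k3 turned sign in 9 of 16 alternatives, RLE and upper quartile factors among them.

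Other immediate early genes were tested for 29 of 30, with 9 positive and 20 negative (69.0%) and a median log2 fold change of -0.18. Dusp1, a phosphatase that switches MAP kinases off, was at 782, 1467 and 1153 CPM in DT 1 to 3, against 2673, 2133, 2306 and 2190 CPM in PBS 1 to 4. Every DT library was below every PBS library, with an edgeR adjusted p of 0.288 and a log2 fold change of -1.03 (SE 0.25). Dusp1 passed in 7 of 16 alternatives. Nfkbia, the inhibitor of NF-kB that NF-kB itself induces, had -0.63 (SE 0.22) and Cyr61, a matricellular protein gene, -0.56 (SE 0.24). Klf6, an early zinc finger factor, had 0.22 (SE 0.22). The edgeR adjusted p was 1.00 for these 3. The groups did not overlap for 3 of the 29 genes (10.3%), all lower in DT, against 6.37% of all tested genes and 13.1% of those averaging a log2 CPM of 8 or more, among which 15 of the 29 lie.

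Target genes of AP-1 were tested for 28 of 40, with 17 positive, 11 negative and a median log2 fold change of 0.14. Sprr1a, a cornified envelope gene known to be driven by AP-1 in epithelia, was at 2706, 2336 and 2563 CPM in DT 1 to 3, against 1396, 1379, 2172 and 1719 CPM in PBS 1 to 4. The groups did not overlap, with an edgeR adjusted p of 1.00 and a log2 fold change of 0.61 (SE 0.23). Spp1, which encodes osteopontin, had 0.31 (SE 0.15), the neutrophil chemokine gene Cxcl2 0.10 (SE 0.23) and the EGF receptor ligand gene Hbegf -0.07 (SE 0.25), with an edgeR adjusted p of 1.00 for each.

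Heat shock genes were tested for 14 of 15, with 4 positive, 10 negative and a median log2 fold change of -0.13. The chaperone gene Hsp90ab1 was at 6655 ± 474 CPM in DT (SD, n = 3) and 8325 ± 748 CPM in PBS (SD, n = 4), with no overlap and a log2 fold change of -0.32 (SE 0.16). Hspa1a, the inducible HSP70 gene, was at 274, 358 and 373 CPM in DT 1 to 3, against 352, 561, 827 and 986 CPM in PBS 1 to 4. Its log2 fold change was -1.02 (SE 0.38), and -0.06 with Y-linked reads in the fit, which sets DT against PBS 1 alone. Hsp90aa1 and Hspa5, the chaperone genes of the cytosol and the endoplasmic reticulum, had -0.14 (SE 0.24) and 0.07 (SE 0.20). The edgeR adjusted p was 1.00 for each of these 4.

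**Figure D5:**
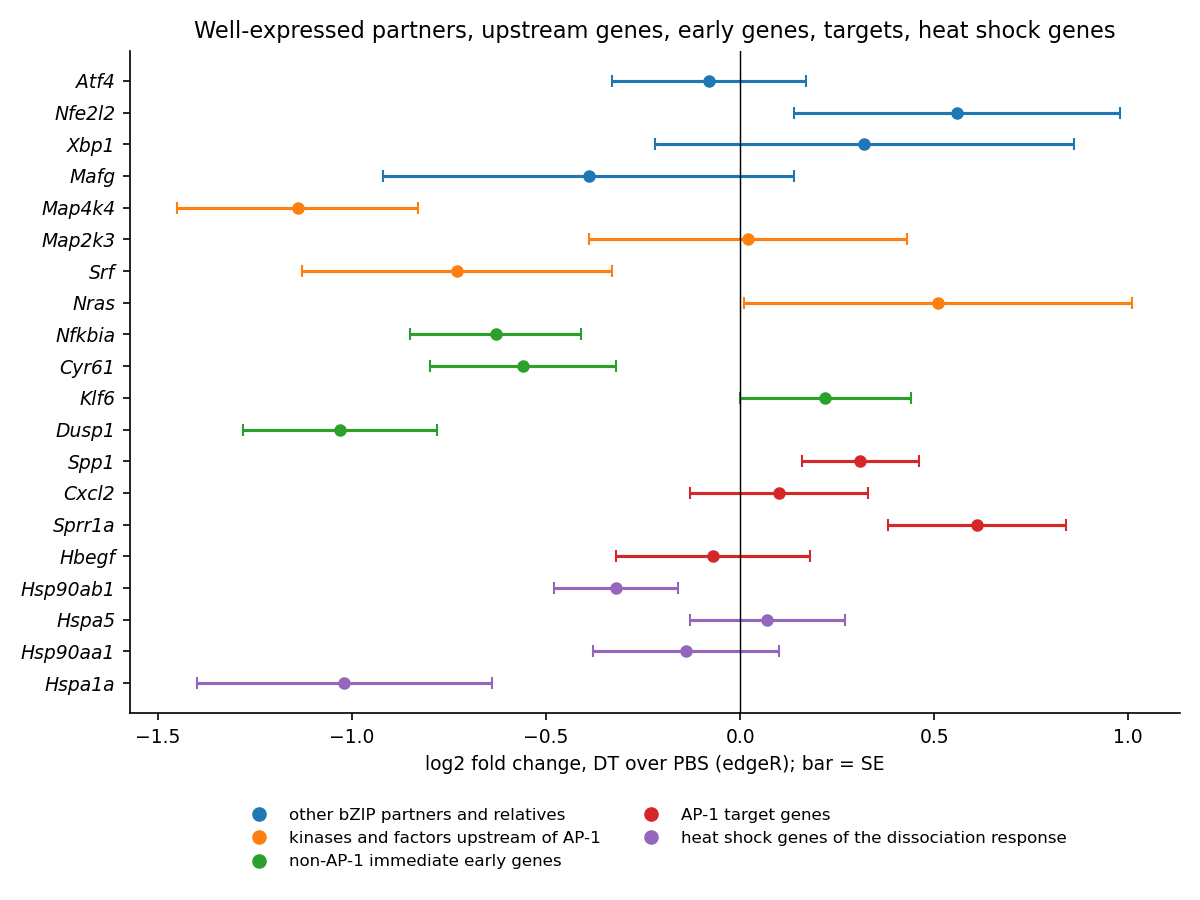
Log2 fold change of DT over PBS with its SE as a bar (x axis, edgeR fit) for the 4 genes with the highest average CPM of each list (y axis), coloured by list. Map4k4, Dusp1 and Hspa1a lie near -1 and Sprr1a at 0.61, and no gene shown passed the test.

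The profile of each well-read member over the 7 libraries was set beside those of the 732 other genes that averaged a log2 CPM of 8 or more, as the root mean square difference of log2 values after centring each gene. The nearest profiles to Junb were those of the long noncoding RNA Kcnq1ot1, at 0.14, and the scaffold protein gene Iqgap1, at 0.21. The nearest to Fos were Brd2, a bromodomain protein gene, at 0.07, and Klf6, at 0.10. The nearest to Jun were Lrrfip1 (0.11) and Tm4sf4 (0.12), to Fosl1 Ppp1r15a (0.15) and Rsbn1 (0.17), and to Maff Larp4b (0.15) and Cdc42 (0.19). Fosb, Fosl2 and Atf3 had looser neighbours, Apoe (0.29) and Cst3 (0.30), Srsf2 (0.34) and Gnb1 (0.42), and Lamp2 (0.28) and Ext1 (0.33). Between each member and the nearest of the other 7, a far smaller choice than 732 genes, the difference was 0.35 (Fos and Jun) to 0.69 (Atf3 and Maff), with Jun the member nearest to Junb, at 0.43. The median over the 732 genes was 0.55 to 0.95, depending on the member.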

How the data were processed

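RNA was made into libraries with the QuantSeq FWD kit, which reads 3′ ends, from 100 ng of total RNA, per the labels' protocols. The authors deposited unnormalized read counts, with gene symbols as rows and 1 column per library. Per the submitters' processing notes, mm9 was the genome build. How reads were aligned and counted, with which annotation, is not given in the sources used here, nor is whether molecular identifiers were used. Columns were matched to libraries by the sample titles.

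The filterByExpr function kept 7688 genes, library sizes were scaled by TMM, and DT and PBS libraries were compared by the quasi-likelihood test of edgeR 4.0.16 with robust dispersion (R 4.3.3), two-sided, with Benjamini-Hochberg adjustment over all tested genes and a threshold of 0.05. The SE is the log2 fold change over the square root of F. The scripts were tested on simulated counts. Limits from counts cover counting error only, since PCR reads are not independent molecules.

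The members and lists were chosen with earlier results of these data known. Named are the 9 members, of each list up to 4 genes past the threshold and the 4 with the highest average CPM, and for each well-read member the 2 nearest profiles. Other genes named were chosen after their values were seen.

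Alternatives were no filter, scaling by RLE or upper quartile factors, filters at an average log2 CPM of 3 and 8, the replicate number as a block, Y-linked reads (present or not) as a covariate, limma-voom with sample weights (limma 3.58.1), DESeq2 1.42.0 and leaving out each library. Figures were drawn with matplotlib 3.10.9.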

Additional observations from a re-analysis of the deposited data

Results flagged for a closer look

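Among 49 values tested in the 4 PBS libraries, 6 had 1 library far from the others of the group. About 1 in 20, or 2.45, would be flagged by chance if the values were independent. Many share genes and are not, so no excess is read from this. The ratio of Fosl1 to Fosl2 counts was 7.10 in PBS 1, against 0.759 to 1.34 in the other PBS libraries. The summed level of Jun, Junb and Jund was 3704 CPM in PBS 3, against 2700 to 2861 CPM in the others. Spp1 was at 8153 CPM in PBS 1, against 11366 to 11950 CPM in the others. Y-linked genes took 0.0415% of counts in PBS 1 and 0% in the others. T and NK cell markers took 0.00544% and neutrophil markers 0.0355% of counts in PBS 4, against at most 2.1e-05% and 0% in the others. As these markers and the Y-linked genes were at or near 0 in the other PBS libraries, reads in 1 library sufficed for a flag.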

How the results depend on the processing

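Junb was negative in all 16 alternatives (-1.26 to -0.95), which reuse the same libraries. Since its groups did not overlap, leaving out 1 library could hardly turn its sign. Its edgeR adjusted p was 0.288 in the main fit. It passed the threshold in 5 alternatives, 3 of these with edgeR (no filter, the filter at 8 and the replicate block). Nothing is read from these passes, as the members were chosen with this contrast in view. Fos, Fosb, Fosl1, Jun and Atf3 also kept their sign. Fosl2 turned sign in 3, Jund in 4 of 15 and Maff in 1. The median of the 9 log2 fold changes (0.07) was -0.09 to 0.23 when 1 library was left out and the number of negative members 3 to 5. The median was 0.02 with RLE and 0.04 with upper quartile factors, and the number of negative members stayed at 4. Genes higher in DT (0) numbered 1 with no filter, 1 with the filter at 3, 6 by limma-voom, 27 by DESeq2 and 23 with the Y-linked covariate, and 0 to 1 with 1 library left out. Genes lower in DT (3) numbered 7 with no filter, 5 with the filter at 8, 6 by limma-voom and 78 by DESeq2, and 1 to 4 with 1 library left out. With the replicate number as a block, which leaves PBS 4 without a partner and so drops it, 6 were higher and 6 lower. The labels do not say whether the numbers pair the libraries. Deviations from the group means over 733 genes correlated at -0.0487 to 0.0259 between same-numbered libraries. Libraries with unlike numbers were not set beside them, so these values do not decide whether there was pairing. Genes of the 5 lists past the threshold (0) were 1 under the block, under both other filters and without one (Dusp1 each time), 3 by limma-voom (Dusp1, Sprr1a and Hsp90ab1) and 4 by DESeq2 (Map4k4, Mapk7, Dusp1 and Csrnp1), and 0 to 1 with 1 library left out. The cause was not tested.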
